A study of Mus musculus with 24 samples.

Results

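Cell division genes were followed as a set of 49 genes of the 18368 in the table of mouse skin expression. The set was fixed by gene symbol. It held 18 genes of DNA replication and its nucleotide supply, 25 genes of mitosis, and 6 regulators of the cell cycle. All 49 were listed and all 49 were tested, and no library listed any of them at 0.

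The libraries came from whole skin of 12 CD1 mice, a CD-1 outbred stock, 7 weeks old and described as coordinated in telogen, the resting phase of the hair cycle. Each mouse gave 1 anatomical site, abdomen, back or cheek, with 4 mice a site. Abdomen and back received 2 full-thickness punch wounds of 2 mm and the cheek received 1. On day 3 the wound was taken with a 2 mm punch, and healthy skin beside it was taken from the same mouse as the unwounded control. This gave 24 libraries in 6 groups of 4. All animals had been shaved, anaesthetised and given an analgesic. The control skin lay beside a 3 day wound, so it was not skin of an unwounded animal. Mouse numbers run from 1 to 4 within a site, and mouse 1 of abdomen and mouse 1 of back were different animals. Expression was given as FPKM, fragments scaled by transcript length and by library size, a unit that allows levels of different genes to be set side by side. Summed FPKM ran from 490830 to 608888 per library, and Krt5, a keratin of the basal epidermis, was at 1419 FPKM or more in all 24. Read depth was unknown. The unwounded libraries of cheek mice 3 and 4 and both libraries of back mouse 2 stood apart through genes of growing hair follicles, and results that rest on them are given with and without them.

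A cell that divides first copies its DNA in S phase. The Mcm2 to Mcm7 proteins form the ring helicase that opens the double helix, Cdc6 and Cdt1 load that ring onto origins, Pcna clamps the polymerase to the template, and ribonucleotide reductase and thymidylate enzymes supply the nucleotides. The cell then passes through G2 into mitosis, when Cdk1 with B cyclins, the Aurora and Polo kinases, centromere proteins and kinesins build the spindle and part the chromosomes, and the spindle checkpoint restrains Cdc20 until all are attached. E2F factors drive transcription of replication genes, while B-Myb (Mybl2) and Foxm1 act with the MuvB complex on mitosis genes. In skin these genes mark basal keratinocytes, the matrix of growing hair follicles and, after injury, the cells that refill the wound.

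Promoter sequences were compared between the classes. RefSeq gave 39 promoters for 38 of the 49 members (GRCm38.p6; Mcm7 had 2), each from 250 bases before to 50 bases after the gene start. On both strands they were searched for the CHR element (TTTGAA or TTCGAA), on which MuvB acts, for an E2F site (TTTCCCGC, TTTGGCGC, TTTCGCGC or TTTGCCGC) and for a CCAAT box (CCAAT), the site of NF-Y. The CHR element stood in 16 of 20 promoters of mitosis members (80.0%), in 2 of 16 promoters of replication members (12.5%) and in 19.2% of all 32851 promoters. An E2F site stood in 6 of 16 replication promoters (37.5%), in 1 of 20 mitosis promoters (5%) and in 2.26% of all. A CCAAT box was held by 17 of 20 mitosis promoters (85.0%), 11 of 16 replication promoters (68.8%) and 37.4% of all. Where only the 250 bases before the start were searched, the CHR element was left in 9 of the 20 mitosis promoters (45.0%) against 17.1% of all, since several lie just inside the transcribed part. No test was made of these counts, and a match says nothing of whether a factor was bound.

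The windows below show the CHR element of mitosis members in capitals, each as 30 bases of the gene's own strand, 5′ to 3′. Where the element lies on the other strand, as in Ttk, the capitals read as its reverse complement. They are shown because more promoters of mitosis than of replication members held this element, and Ttk is included because its expression went another way.
Plk1 (chr7:122159453-122159482, plus strand): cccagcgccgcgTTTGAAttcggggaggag
Cdc20 (chr4:118437344-118437373, minus strand): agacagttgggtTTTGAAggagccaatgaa
Ccnb2 (chr9:70421533-70421562, minus strand): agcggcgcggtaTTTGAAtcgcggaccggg
Kif23 (chr9:61946780-61946809, minus strand): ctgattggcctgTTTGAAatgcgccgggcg
Bub1 (chr2:127831828-127831857, minus strand): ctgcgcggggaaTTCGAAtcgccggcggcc
Ttk (chr9:83834684-83834713, plus strand): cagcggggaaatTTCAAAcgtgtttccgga

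The next windows show the E2F site of replication members in capitals. Mcm3, Mcm5 and Mcm6 held further matches, some on the other strand and overlapping in Mcm5 and Mcm6, which are not marked.
Mcm3 (chr1:20820263-20820292, minus strand): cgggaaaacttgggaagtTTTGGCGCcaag
Mcm5 (chr8:75109345-75109374, plus strand): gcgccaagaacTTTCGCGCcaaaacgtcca
Mcm6 (chr1:128359734-128359763, minus strand): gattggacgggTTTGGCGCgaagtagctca
Cdt1 (chr8:122568035-122568064, plus strand): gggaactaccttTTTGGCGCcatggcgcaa
Cdc6 (chr11:98908002-98908031, plus strand): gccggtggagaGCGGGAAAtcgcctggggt

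Some exceptions to this pattern are shown last, beside a regulator. Mcm2 and Mcm7 were replication members with a CHR element, of which Mcm2 is shown. Cdk1 was the mitosis member with an E2F site. Birc5, Ccnb1, Cenpe and Nusap1, not shown, were mitosis members without a CHR element in the promoter searched. E2f8, a regulator outside both classes and a repressor of the E2F family, held a CHR element.
Mcm2 (chr6:88898833-88898862, minus strand): agggctcagcctTTTGAAagctgtgggcgg
Cdk1 (chr10:69353025-69353054, minus strand): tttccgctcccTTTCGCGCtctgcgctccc
E2f8 (chr7:48881599-48881628, minus strand): gagcgggttaatTTCAAAtcgggggctgga

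Members differed widely in level. Averaged over the 12 unwounded libraries, Pcna was the most abundant member at 77.6 FPKM, followed by Ccnd2 (cyclin D2) at 29 and Ube2c, an enzyme of the ubiquitin ligase that ends mitosis, at 23.5 FPKM. Cdc6 was the least abundant at 0.922 FPKM. In wounds the mean of Ube2c was 57.4 FPKM and that of Ccnd2 17.1 FPKM.

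The first comparison asked how skin at each site answered to a wound. The mitosis members had the largest change: averaged over their 25 members, the log2 level of wounds exceeded that of the unwounded skin of the same mouse by 1.00 ± 0.348 (abdomen), 1.15 ± 0.201 (back) and 0.896 ± 0.817 (cheek; SD over n = 4 mice each). The same change for the 18 replication members was 0.634 ± 0.311, 0.812 ± 0.207 and 0.608 ± 0.577. The 6 regulators exceeded their unwounded level by 0.610 ± 0.246, 0.642 ± 0.134 and 0.404 ± 0.621. All 3 class means were higher in the wound in 11 of 12 mice, and the exception each time was cheek mouse 4. All 4 wounds lay above all 4 unwounded libraries for 38 of 49 members in abdomen, 44 in back and 2 in cheek, where 13.4%, 25% and 16.7% of tested genes did; all 4 lay below for 0, 1 (Ccnd2) and 1 (Ccnd2), against 11%, 15.4% and 15% of tested genes. Paired within mice, the wound was higher in all 4 mice for 43, 46 and 16 members, against 23.7%, 33.9% and 25% of tested genes. In bulk tissue, more dividing cells and more RNA per cell cannot be told apart.

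**Figure D1:**
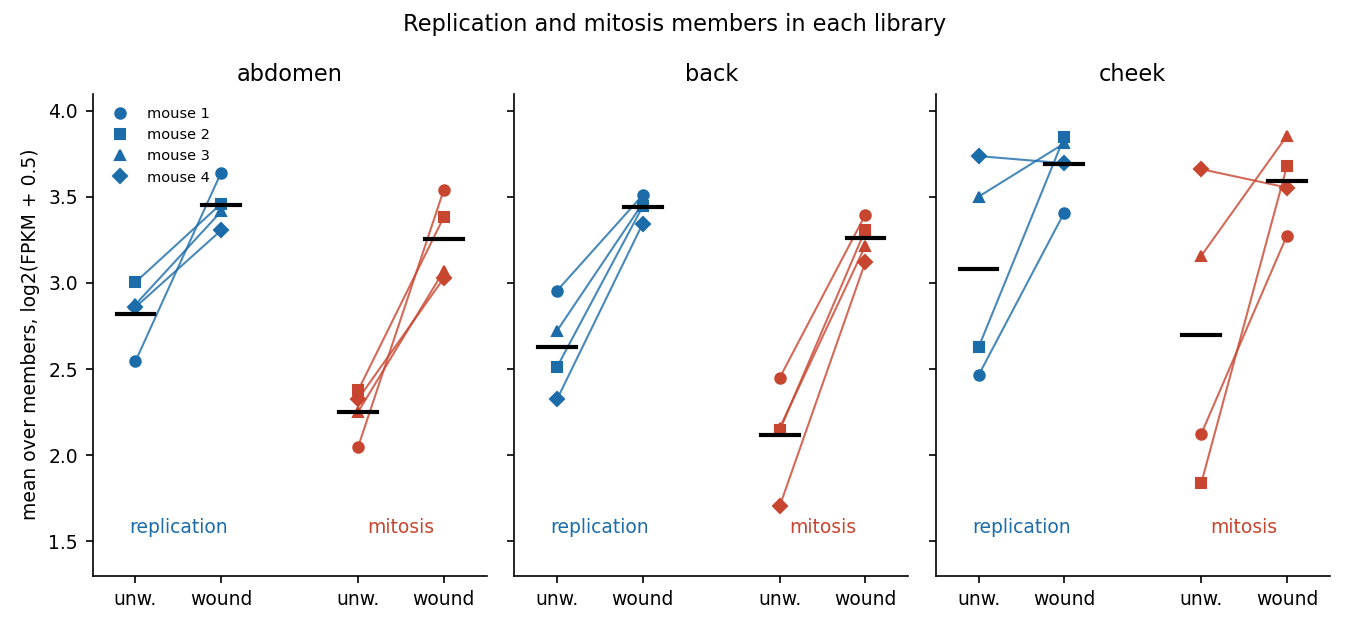
Mean level of the 18 replication members (blue) and the 25 mitosis members (red) in each library, as log2(FPKM + 0.5), in unwounded skin (unw.) and wounds of each site; lines join the libraries of a mouse and black bars are group means. Lines rise in abdomen and back, and the unwounded libraries of cheek mice 3 and 4 start near wound level, at 3.16 and 3.66 for mitosis.

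Gene by gene, limma tests on log2(FPKM + 0.5) with a term for each mouse called few members at an adjusted p under 0.001, the study's threshold for wounds. In back, 11 of 49 rose, where 10% of the 14423 tested genes did. They were 8 mitosis members (Plk1, Birc5, Ube2c, Tpx2, Cdk1, Cdc20, Kif2c and Bub1b), the replication members Rrm2 and Chaf1a, and E2f8. In abdomen 1 of 49 rose, E2f8, against 3.92% of tested genes. In cheek none of 49 rose by limma at that threshold, against 6.50% of tested genes, although 39 were higher at an unadjusted p under 0.05, as were 24.4% of tested genes, and Ccnd2 fell, as did 2.19% of tested genes. In abdomen and back 0 fell by limma at that threshold, against 1.04% and 4.37% of tested genes, and 2 and 1 were lower at an unadjusted p under 0.05, as were 22.1% and 21.4% of tested genes.

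At an adjusted p under 0.05 the picture was wider: 36 of 49 members rose in abdomen, 45 did in back and 32 did in cheek, where 16.9%, 28% and 19.7% of tested genes did. At the same threshold 2 fell in abdomen (Ttk and Ccnd2) and Ccnd2 alone in back and in cheek, against 16%, 17.9% and 16.9% of tested genes. At that threshold 31 members rose at all 3 sites, 6 at 2 sites, 8 in back alone and 4 at none. The shares of all tested genes in these combinations were not computed. By class, those that rose in abdomen were 12 replication, 21 mitosis and 3 regulator members, in back 16, 24 and 5, and in cheek 10, 19 and 3. The median effect of mitosis members was 1.04, 1.22 and 0.94 in abdomen, back and cheek, that of replication members 0.56, 0.79 and 0.52, and that of all tested genes -0.015, 0.066 and 0.012. At 0.05 members were thus called more often than tested genes as a whole at each site. At 0.001 that held in back alone, and in abdomen and cheek the share of members was below that of all tested genes.

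**Figure D2:**
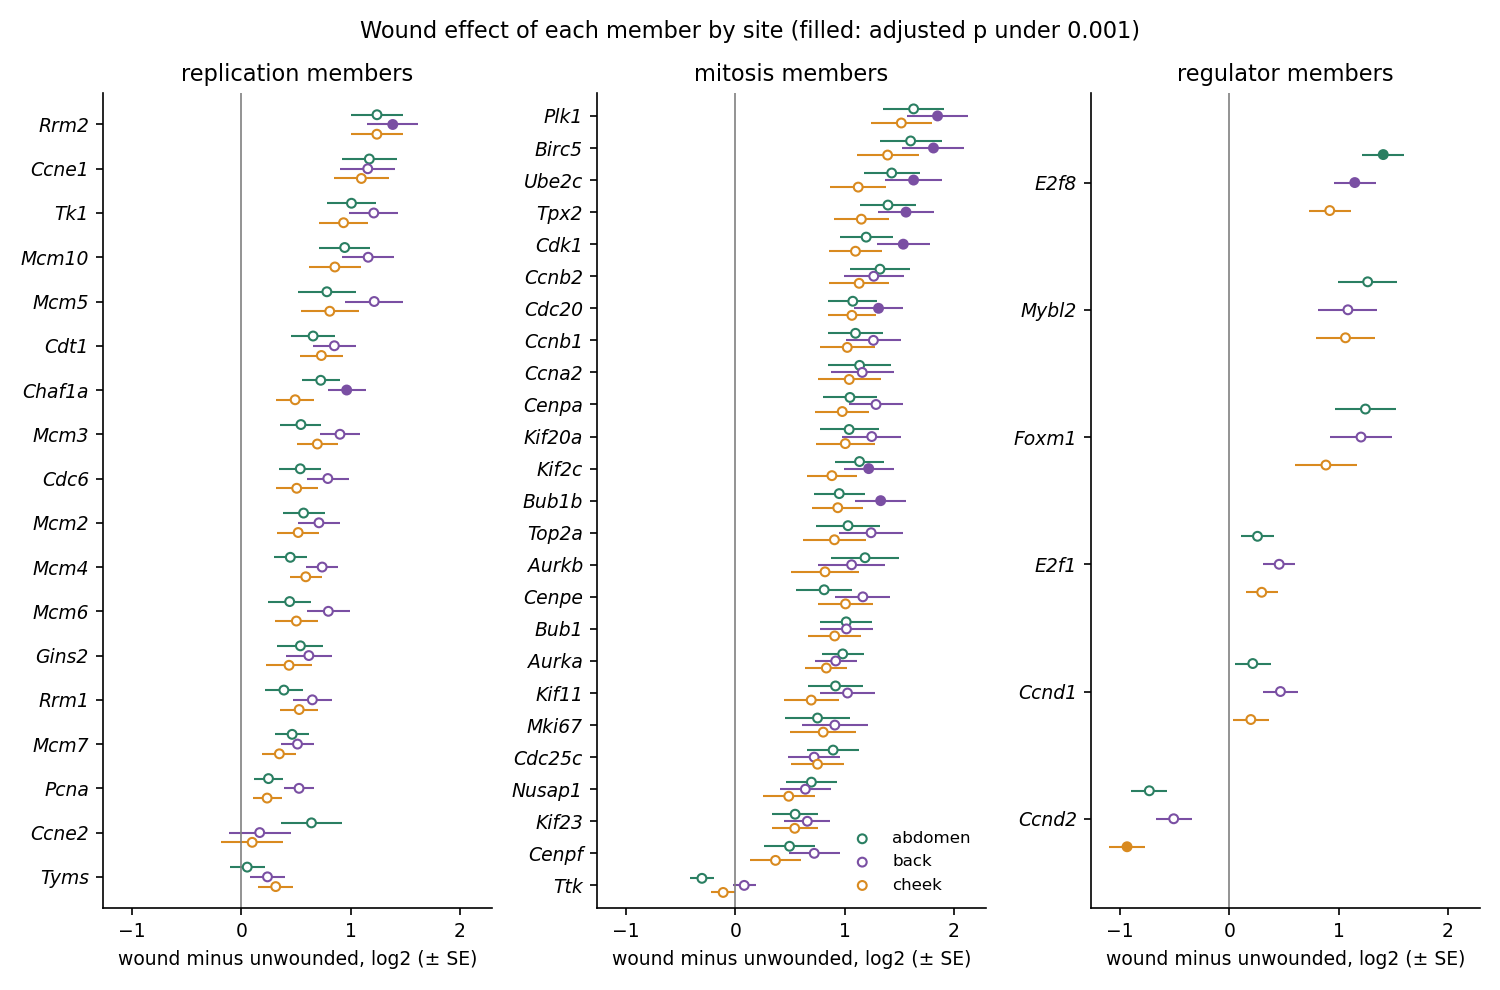
Wound effect of each of the 49 members, wound minus unwounded on the log2(FPKM + 0.5) scale with its standard error, for abdomen (green), back (purple) and cheek (orange), in 3 panels by class. Filled points passed an adjusted p under 0.001; Plk1 lies at the top of the mitosis panel, Rrm2 at the top of the replication panel, and Ttk and Ccnd2 lie at or left of 0.

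All sites share 1 estimate of the spread in this fit, and the counts at 0.001 depended on single mice. Without cheek mouse 4 the members that rose at 0.001 numbered 14, 23 and 16 in abdomen, back and cheek, where 4.36%, 10.9% and 5.31% of the genes tested in that fit rose. Without cheek mouse 2 they numbered 8, 20 and 0, against 4.01%, 10.1% and 3.44% of genes. Leaving out any of back mice 1 to 4 left 0 in back, where 5.26% to 6.31% of genes rose, and leaving out abdomen mouse 1, 2 or 3 left 0 in abdomen, where 1.93% to 3.21% did. Abdomen mice 2 and 3 and cheek mouse 3, left out in turn, gave 7, 6 and 6 in back, against 9.30%, 8.68% and 8.93% of genes. The fit to the 8 back libraries alone called 35 members higher, where it called 9.88% of 13776 tested genes higher.

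The 5 members that the study itself picked from these libraries were Mki67, Top2a, Ccnb1, Mcm2 and Mybl2, so that their direction is no independent evidence. Mki67 (gene ID 17345, chromosome 7, 135689784 to 135716450) encodes Ki-67, the common marker of cycling cells. Positions here and below are on GRCm38.p6, and a wound effect is limma's log2 difference ± its SE. In abdomen, Mki67 was 3.89, 6.75, 4.74 and 8.28 FPKM in the unwounded libraries of mice 1 to 4 and 12.2, 11.1, 7.59 and 9.37 FPKM in their wounds. In back, Mki67 was 7.01, 5.44, 5.02 and 3.2 FPKM in the unwounded libraries of mice 1 to 4 and 11.9, 10.6, 8.99 and 8.16 FPKM in their wounds. In cheek, Mki67 was 4.88, 3.98, 11.1 and 17.7 FPKM in the unwounded libraries of mice 1 to 4 and 11.2, 16.2, 17.5 and 12.9 FPKM in their wounds. Wounds were higher in 11 of 12 mice, and only back wounds lay clear of all unwounded libraries of their site, as the wound of abdomen mouse 3 lay below the unwounded skin of mouse 4. Mki67 had a wound effect of 0.75 ± 0.30 (abdomen), 0.91 ± 0.30 (back) and 0.80 ± 0.30 (cheek), with adjusted p = 0.0755, 0.0278 and 0.0555, so that no site passed 0.001.

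Top2a (gene ID 21973, chromosome 11, 98992947 to 99024199) encodes the topoisomerase that untangles sister chromatids. Levels of Top2a in abdomen were 5.16, 9.32, 6.72 and 8.79 FPKM in the unwounded libraries of mice 1 to 4 and 18.5, 18.1, 13.6 and 12.6 FPKM in their wounds. Levels in back were 8.54, 6.35, 6.18 and 4.6 FPKM in the unwounded libraries of mice 1 to 4 and 17.8, 16.3, 15.2 and 13.2 FPKM in their wounds. Levels in cheek were 6.5, 5.18, 17 and 24.9 FPKM in the unwounded libraries of mice 1 to 4 and 15.5, 23.5, 25.7 and 21.2 FPKM in their wounds. Abdomen and back wounds all exceeded the unwounded libraries of their site, whereas in cheek the unwounded libraries of mice 3 and 4 reached into the wound range. Top2a had a wound effect of 1.03 ± 0.29 (abdomen), 1.24 ± 0.29 (back) and 0.91 ± 0.29 (cheek), with adjusted p = 0.0191, 0.00505 and 0.0304.

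Ccnb1 (gene ID 268697, chromosome 13, 100778739 to 100786486) encodes cyclin B1, the partner of Cdk1 at mitotic entry. Abdomen skin held Ccnb1 at 4.85, 5.93, 4.9 and 5.78 FPKM in the unwounded libraries of mice 1 to 4 and 16.2, 14.8, 10.5 and 8.34 FPKM in their wounds. Back skin held it at 5.93, 4.92, 4.3 and 3.68 FPKM in the unwounded libraries of mice 1 to 4 and 14, 11.2, 12 and 10.5 FPKM in their wounds. Cheek skin held it at 4.68, 4.24, 11.9 and 18.6 FPKM in the unwounded libraries of mice 1 to 4 and 11.9, 17.9, 23.9 and 17.4 FPKM in their wounds. The wound of cheek mouse 3 had the highest level, and the unwounded skin of cheek mouse 4 was above its own wound. Ccnb1 had a wound effect of 1.10 ± 0.25 (abdomen), 1.26 ± 0.25 (back) and 1.02 ± 0.25 (cheek), with adjusted p = 0.00709, 0.00190 and 0.00845.

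Plk1 (gene ID 18817, chromosome 7, 122159435 to 122169884), the Polo kinase that drives mitotic entry and spindle formation, had the largest mean wound effect of the mitosis members. Abdomen values of Plk1 were 3.9, 4.93, 4.04 and 3.83 FPKM in the unwounded libraries of mice 1 to 4 and 16.3, 18.3, 12.7 and 9.88 FPKM in their wounds. Back values of Plk1 were 4.75, 3.85, 3.56 and 2.24 FPKM in the unwounded libraries of mice 1 to 4 and 14, 14.8, 14.1 and 12.8 FPKM in their wounds. Cheek values of Plk1 were 3.78, 2.44, 8.33 and 15.9 FPKM in the unwounded libraries of mice 1 to 4 and 12.8, 19, 22.4 and 20.2 FPKM in their wounds. Plk1 was higher in the wound in 12 of 12 mice, and in abdomen and back the groups did not overlap, which held for 13.4% and 25% of tested genes. Plk1 had a wound effect of 1.63 ± 0.28 (abdomen), 1.85 ± 0.28 (back) and 1.52 ± 0.28 (cheek), with adjusted p = 0.00151, 0.000321 and 0.00163, and averaged over the sites it came to 3.18-fold. The call in back was lost without any of the 4 back mice (adjusted p of at most 0.00277).

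Ttk (gene ID 22137, chromosome 9, 83834651 to 83872390), the Mps1 kinase of the spindle checkpoint, had the smallest effect of the mitosis members. Ttk in abdomen was at 8.94, 14.1, 12 and 9.42 FPKM in the unwounded libraries of mice 1 to 4 and 8.42, 8.62, 10.5 and 7.63 FPKM in their wounds. Ttk in back was at 7.19, 5.85, 6.43 and 5.41 FPKM in the unwounded libraries of mice 1 to 4 and 7.5, 6.61, 7.05 and 5.33 FPKM in their wounds. Ttk in cheek was at 8.4, 6.83, 10.1 and 10.1 FPKM in the unwounded libraries of mice 1 to 4 and 7.95, 8.02, 8.35 and 7.93 FPKM in their wounds. Wounds were above unwounded skin in 4 of 12 mice and in no abdomen mouse. Ttk had a wound effect of -0.31 ± 0.11 (abdomen), 0.081 ± 0.11 (back) and -0.11 ± 0.11 (cheek), with adjusted p = 0.0431, 0.562 and 0.441; its sign in back turned under quantile normalization and its sign in cheek turned without cheek mice 3 and 4.

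Among the remaining mitosis members, Birc5 (survivin, of the chromosomal passenger complex) had a wound effect of 1.61 ± 0.28 (abdomen), 1.81 ± 0.28 (back) and 1.39 ± 0.28 (cheek), with adjusted p = 0.00189, 0.000433 and 0.00309. Ube2c had 1.43 ± 0.26 (abdomen), 1.63 ± 0.26 (back) and 1.13 ± 0.26 (cheek), with adjusted p = 0.00200, 0.000441 and 0.00587. Tpx2, a spindle assembly factor that activates Aurora A, had 1.40 ± 0.25 (abdomen), 1.56 ± 0.25 (back) and 1.15 ± 0.25 (cheek), with adjusted p = 0.00189, 0.000458 and 0.00426. At the low end, Cenpf, a kinetochore protein, passed 0.05 in back alone, with effects of 0.50 ± 0.24 (abdomen), 0.72 ± 0.24 (back) and 0.37 ± 0.24 (cheek), with adjusted p = 0.121, 0.0238 and 0.240. Of the 25 mitosis members, 23 were higher in the wound in at least 11 of 12 mice and 9 in all 12; over all 49 members these counts were 42 and 16, where 23.3% and 14.4% of tested genes reached them.

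Of the replication members, Mcm2 (gene ID 17216, chromosome 6, 88883474 to 88898780) is a subunit of the helicase. Mcm2 levels in abdomen were 6.48, 8.45, 6.75 and 9.54 FPKM in the unwounded libraries of mice 1 to 4 and 14.8, 10.7, 9.99 and 11.8 FPKM in their wounds. Mcm2 levels in back were 9.06, 6.44, 6.69 and 4.85 FPKM in the unwounded libraries of mice 1 to 4 and 12.1, 11.2, 11.3 and 10 FPKM in their wounds. Mcm2 levels in cheek were 5.61, 7.06, 14.1 and 16.6 FPKM in the unwounded libraries of mice 1 to 4 and 11.2, 15.6, 16.6 and 14.5 FPKM in their wounds. Back and abdomen wounds lay above the unwounded libraries of their site, and in cheek the groups overlapped. Mcm2 had a wound effect of 0.57 ± 0.19 (abdomen), 0.71 ± 0.19 (back) and 0.52 ± 0.19 (cheek), with adjusted p = 0.0382, 0.00973 and 0.0506. Over Mcm2 to Mcm7, the effects ran from 0.44 to 0.78 (abdomen), 0.51 to 1.22 (back) and 0.35 to 0.81 (cheek), with Mcm5 the highest at each site and the lowest being Mcm6 in abdomen and Mcm7 in back and cheek.

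Rrm2 (gene ID 20135, chromosome 12, 24708254 to 24714146), the small subunit of ribonucleotide reductase that is made in S phase, had the largest mean wound effect of the replication members. In abdomen, Rrm2 was 7.77, 10.3, 7.51 and 8.29 FPKM in the unwounded libraries of mice 1 to 4 and 28.5, 21.9, 17.2 and 16.7 FPKM in their wounds. In back, Rrm2 was 10.5, 5.71, 8.51 and 7.5 FPKM in the unwounded libraries of mice 1 to 4 and 23.5, 20.7, 23.3 and 18.5 FPKM in their wounds. In cheek, Rrm2 was 6.98, 6.83, 17.1 and 24 FPKM in the unwounded libraries of mice 1 to 4 and 21.7, 31.3, 33.7 and 30 FPKM in their wounds. The wound was higher in 12 of 12 mice, and only the cheek groups overlapped. Rrm2 had a wound effect of 1.24 ± 0.24 (abdomen), 1.39 ± 0.24 (back) and 1.24 ± 0.24 (cheek), with adjusted p = 0.00245, 0.000641 and 0.00181, whereas that of Rrm1, the large subunit, was 0.39 ± 0.18 (abdomen), 0.65 ± 0.18 (back) and 0.53 ± 0.18 (cheek), with adjusted p = 0.105, 0.00952 and 0.0323. The back call of Rrm2 was lost without any of back mice 1 to 4 and without abdomen mouse 3 or 4 or cheek mouse 1 or 3, with adjusted p of at most 0.00562.

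Tyms (gene ID 22171, chromosome 5, 30038546 to 30073645), the thymidylate synthase that makes dTMP anew, had the smallest effect of the class. In abdomen, Tyms was 8.65, 11.4, 14.5 and 9.07 FPKM in the unwounded libraries of mice 1 to 4 and 12.3, 11, 11.5 and 9.78 FPKM in their wounds. In back, Tyms was 8.98, 6.74, 7.66 and 8.77 FPKM in the unwounded libraries of mice 1 to 4 and 9.39, 8.57, 10.1 and 10.1 FPKM in their wounds. In cheek, Tyms was 6.63, 6.42, 8.34 and 11.3 FPKM in the unwounded libraries of mice 1 to 4 and 7.97, 13.2, 9.7 and 9.84 FPKM in their wounds. Groups overlapped at every site, and wounds were higher in 9 of 12 mice. Tyms had a wound effect of 0.053 ± 0.16 (abdomen), 0.24 ± 0.16 (back) and 0.31 ± 0.16 (cheek), with adjusted p = 0.822, 0.238 and 0.138, and without abdomen mouse 1 the abdomen value was -0.090. Tk1, the salvage enzyme for the same nucleotide, had effects of 1.01 ± 0.22 (abdomen), 1.21 ± 0.22 (back) and 0.94 ± 0.22 (cheek), with adjusted p = 0.00564, 0.00106 and 0.00685. A processed pseudogene, Tyms-ps, is annotated elsewhere in the genome, and fragments of near-identical copies may be shared between them, so that Tyms levels are uncertain.

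Chaf1a (gene ID 27221, chromosome 17, 56040416 to 56068026), the large subunit of the chromatin assembly factor that lays histones on new DNA, had the smallest p of its class in the test of site differences. Chaf1a in abdomen stood at 2.71, 3.33, 3.79 and 3.81 FPKM in the unwounded libraries of mice 1 to 4 and 6.68, 6.05, 6.08 and 5.01 FPKM in their wounds. Chaf1a in back stood at 3.73, 2, 2.88 and 2.26 FPKM in the unwounded libraries of mice 1 to 4 and 6.35, 5.49, 5.44 and 5.37 FPKM in their wounds. Chaf1a in cheek stood at 2.59, 3.41, 5.44 and 7.27 FPKM in the unwounded libraries of mice 1 to 4 and 5.19, 6.65, 7.41 and 6.29 FPKM in their wounds. Back and abdomen groups did not overlap. Chaf1a had a wound effect of 0.73 ± 0.17 (abdomen), 0.96 ± 0.17 (back) and 0.49 ± 0.17 (cheek), with adjusted p = 0.00761, 0.000762 and 0.0415. Its back call was lost without any of the 4 back mice, abdomen mouse 2 or 3, or cheek mouse 3, with adjusted p of at most 0.00691. Ubxn6 overlaps Chaf1a on the other strand, and it was not given whether counting used strand.

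Cyclin E takes cells into S phase, and its genes differed. Ccne1 had wound effects of 1.17 ± 0.25 (abdomen), 1.16 ± 0.25 (back) and 1.10 ± 0.25 (cheek), with adjusted p = 0.00431, 0.00270 and 0.00492 and was higher in 12 of 12 mice. Ccne2 had 0.64 ± 0.28 (abdomen), 0.17 ± 0.28 (back) and 0.10 ± 0.28 (cheek), with adjusted p = 0.0990, 0.655 and 0.813 and was higher in 9 of 12. Pcna, which also serves DNA repair, had 0.25 ± 0.13 (abdomen), 0.53 ± 0.13 (back) and 0.24 ± 0.13 (cheek), with adjusted p = 0.170, 0.00647 and 0.184, or 1.26-fold on average.

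The regulators split in direction. E2f8 (gene ID 108961, chromosome 7, 48866429 to 48882073), an atypical E2F that represses E2F targets late in S phase, was higher in the wound in 12 of 12 mice. In abdomen, E2f8 was 2.05, 2.3, 1.75 and 2.24 FPKM in the unwounded libraries of mice 1 to 4 and 9.2, 8.1, 4.86 and 4.4 FPKM in their wounds. In back, E2f8 was 2.53, 2.61, 2.33 and 1.72 FPKM in the unwounded libraries of mice 1 to 4 and 6.22, 6.33, 5.72 and 4.51 FPKM in their wounds. In cheek, E2f8 was 2.64, 3.17, 3.86 and 6.75 FPKM in the unwounded libraries of mice 1 to 4 and 6.09, 8.85, 9.44 and 7.11 FPKM in their wounds. Wounds lay above the unwounded libraries in abdomen and back, and in cheek the unwounded library of mouse 4 lay above the wound of mouse 1. E2f8 had a wound effect of 1.41 ± 0.19 (abdomen), 1.15 ± 0.19 (back) and 0.92 ± 0.19 (cheek), with adjusted p = 0.000241, 0.000473 and 0.00286. The abdomen call was lost without abdomen mouse 1, 2 or 3 (adjusted p of at most 0.00207) and the back call without any back mouse (at most 0.00328).

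Mybl2 (gene ID 17865, chromosome 2, 163054327 to 163084688) encodes B-Myb. Abdomen levels of Mybl2 were 1.08, 1.22, 1.01 and 0.91 FPKM in the unwounded libraries of mice 1 to 4 and 4.59, 3.12, 3.08 and 2.44 FPKM in their wounds. Back levels of Mybl2 were 1.53, 1.1, 1.42 and 0.79 FPKM in the unwounded libraries of mice 1 to 4 and 3.13, 3.22, 2.83 and 3.13 FPKM in their wounds. Cheek levels of Mybl2 were 0.87, 0.82, 2.51 and 4.92 FPKM in the unwounded libraries of mice 1 to 4 and 3.07, 5.03, 5.59 and 4.18 FPKM in their wounds. Abdomen and back groups did not overlap, and in cheek the unwounded library of mouse 4 lay above its own wound. Mybl2 had a wound effect of 1.27 ± 0.27 (abdomen), 1.09 ± 0.27 (back) and 1.06 ± 0.27 (cheek), with adjusted p = 0.00419, 0.00600 and 0.00877, and that of Foxm1 was 1.25 ± 0.28 (abdomen), 1.21 ± 0.28 (back) and 0.88 ± 0.28 (cheek), with adjusted p = 0.00631, 0.00469 and 0.0287.

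Ccnd2 (gene ID 12444, chromosome 6, 127125162 to 127152188), cyclin D2, which links growth signals to G1 progression, was lower in the wound in 12 of 12 mice. In abdomen, Ccnd2 was 24.3, 33.8, 29.5 and 37.5 FPKM in the unwounded libraries of mice 1 to 4 and 17.6, 16.9, 15.6 and 24.5 FPKM in their wounds. In back, Ccnd2 was 24.2, 24.3, 23.4 and 19.6 FPKM in the unwounded libraries of mice 1 to 4 and 18.9, 15.5, 17.6 and 12.3 FPKM in their wounds. In cheek, Ccnd2 was 24.6, 27.9, 33.9 and 45.2 FPKM in the unwounded libraries of mice 1 to 4 and 20.6, 17.1, 12.3 and 17 FPKM in their wounds. Back and cheek wounds lay below all unwounded libraries of their site, which held for 15.4% and 15.0% of tested genes, and in abdomen the wound of mouse 4 lay just above the unwounded skin of mouse 1. Ccnd2 had a wound effect of -0.73 ± 0.16 (abdomen), -0.51 ± 0.16 (back) and -0.94 ± 0.16 (cheek), with adjusted p = 0.00547, 0.0229 and 0.000947. The cheek call at 0.001 was lost without any single mouse other than cheek mouse 1, with adjusted p of at most 0.00688, and without cheek mice 3 and 4 together the effect was -0.47 (adjusted p = 0.0395). Cyclin D1 differed from it, as Ccnd1 had effects of 0.21 ± 0.16 (abdomen), 0.47 ± 0.16 (back) and 0.20 ± 0.16 (cheek), with adjusted p = 0.334, 0.0329 and 0.371, and E2f1, the activating E2F, had 0.26 ± 0.15 (abdomen), 0.46 ± 0.15 (back) and 0.30 ± 0.15 (cheek), with adjusted p = 0.200, 0.0236 and 0.135.

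Other genes of the same pathways were held beside the members. Of 50 further mitosis genes, 31, 46 and 34 rose in abdomen, back and cheek at an adjusted p under 0.05 and none fell. At that threshold 16.9%, 28% and 19.7% of tested genes rose and 16%, 17.9% and 16.9% fell. At 0.001 the counts that rose were 2, 7 and 0, where 3.92%, 10% and 6.50% of tested genes did. Of 44 further replication genes, 15, 24 and 12 rose and 1, 1 and 0 fell at 0.05, beside the same shares of tested genes at 0.05. Gtse1, a microtubule protein of G2, had the largest mean effect among the former, with 1.54 ± 0.24 (abdomen), 1.24 ± 0.24 (back) and 0.90 ± 0.24 (cheek), with adjusted p = 0.000562, 0.00112 and 0.0104, and Dbf4, which activates the kinase that fires origins, among the latter, with 1.03 ± 0.23 (abdomen), 1.15 ± 0.23 (back) and 1.01 ± 0.23 (cheek), with adjusted p = 0.00631, 0.00195 and 0.00577. The kinesin Kif18a had the smallest, with 0.059 ± 0.19 (abdomen), 0.11 ± 0.19 (back) and 0.088 ± 0.19 (cheek), with adjusted p = 0.832, 0.665 and 0.741. Orc4, a subunit of the origin recognition complex, had -0.30 ± 0.10 (abdomen), -0.11 ± 0.10 (back) and -0.088 ± 0.10 (cheek), with adjusted p = 0.0348, 0.398 and 0.522. Among 23 inhibitors and repressors of the cycle, 5, 9 and 6 rose at 0.05, where 16.9%, 28% and 19.7% of tested genes did, and 5, 3 and 5 fell, where 16%, 17.9% and 16.9% did. Averaged over the sites, the effect in this list was highest for Cdkn1c, at 0.66, and lowest for Ccng1, at -0.99. Cdkn1a (p21) had 0.56 ± 0.14 (abdomen), 0.69 ± 0.14 (back) and 0.46 ± 0.14 (cheek), with adjusted p = 0.00995, 0.00185 and 0.0244. Cdkn2c (p18) fell in abdomen and back at 0.001, with -0.49 ± 0.071 (abdomen), -0.49 ± 0.071 (back) and -0.37 ± 0.071 (cheek), with adjusted p = 0.000333, 0.000148 and 0.00150.

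**Figure D3:**
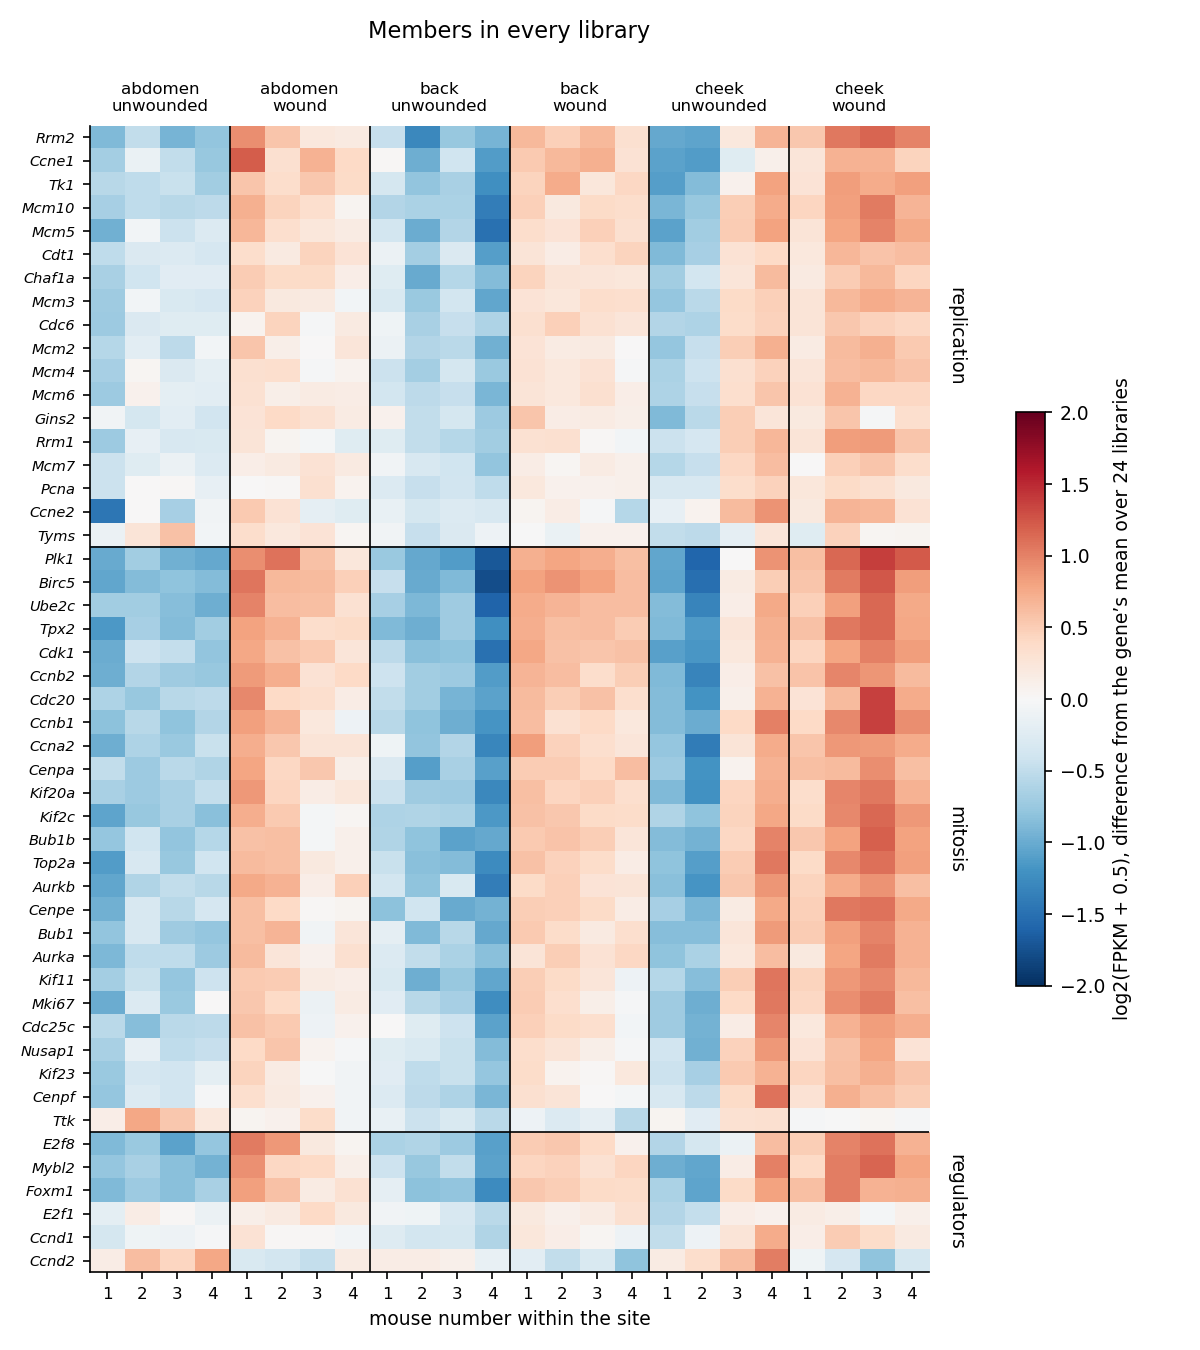
Level of every member in every library as log2(FPKM + 0.5), shown relative to the average of that gene in all 24 (blue lower, red higher, color scale from -2 to 2); columns are mice 1 to 4 of each group, and rows are members by class. Wound columns are red for most rows, the unwounded columns of cheek mice 3 and 4 are red too, and Ttk and Ccnd2 run against the other rows.

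Replication and mitosis members were compared within each library, as the mean log2 level of the first minus that of the second. In unwounded skin the difference stood at 0.570 ± 0.0659 (abdomen), 0.514 ± 0.109 (back) and 0.387 ± 0.296 (cheek; SD, n = 4). In wounds it was 0.200 ± 0.132, 0.179 ± 0.0646 and 0.0998 ± 0.0972. From unwounded skin to wound it changed by -0.370 ± 0.135 (abdomen), -0.335 ± 0.0775 (back) and -0.287 ± 0.289 (cheek). It was lower in the wound in 11 of 12 mice, and the exception was cheek mouse 4, where it changed by 0.065. The mean of mitosis members thus came closer to that of replication members in wounds, and in abdomen and back all 4 wound libraries lay below all 4 unwounded ones. As the members were chosen with results known, the score was given no p.

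**Figure D4:**
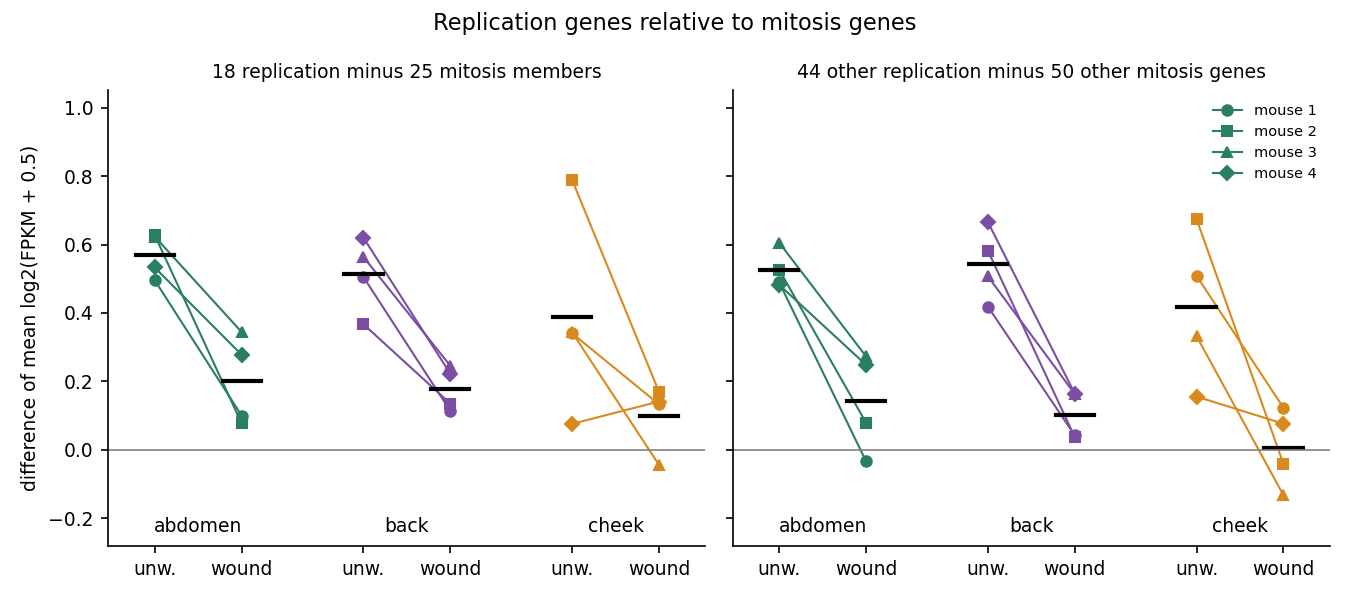
Mean log2(FPKM + 0.5) of replication genes minus that of mitosis genes in each library, for the 49-gene set's 18 and 25 members (left) and for 44 and 50 other genes of the same pathways (right); unw. is unwounded, lines join the libraries of a mouse, black bars are group means. Lines fall in 11 of 12 mice on the left and 12 of 12 on the right.

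The further genes of each pathway showed the same order. Their difference changed by -0.385 ± 0.127 (abdomen), -0.442 ± 0.0968 (back) and -0.412 ± 0.262 (cheek), and it was lower in the wound in 12 of 12 mice. Within the classes the promoter elements went with similar medians: mitosis members with a CHR element had a median of 1.07 over 16 genes for the wound effect averaged over sites, and the 4 without had 1.06. Replication members with an E2F site had a median of 0.66 over 6 genes, and the 9 without had 0.73.

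The wound effect was not found to differ between sites. By the F test of limma, 0 of 49 members had effects that differed among abdomen, back and cheek at an adjusted p under 0.05, where 0.0208% of tested genes did, and 0 of 49 did at an unadjusted p under 0.05, where 12.9% of tested genes did. The smallest adjusted p was 0.412, for Ttk. For Mki67 the effect in cheek minus that in abdomen was 0.052 ± 0.43. For Plk1 it was -0.11 ± 0.40 and for Mcm2 -0.049 ± 0.27. These differences depended on cheek mice 3 and 4. Without them, chosen after seeing the data, the cheek effects were 1.51 (Mki67), 2.18 (Plk1) and 1.02 (Mcm2). The abdomen effects were 0.75, 1.63 and 0.57. No member passed the F test in that fit either.

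The second comparison was between sites in unwounded skin. Back against abdomen, 1 of 49 members passed an adjusted p under 0.05, Ttk, which was lower in back, with a log2 difference of -0.77 ± 0.16 (adjusted p = 0.0254), where 2.14% of 13956 tested genes were lower and 0.530% higher. All 4 back libraries lay below all 4 of abdomen for Ttk, as they did for 10.7% of tested genes. That call was lost without abdomen mouse 2 or 3 or back mouse 2, 3 or 4, with adjusted p of at most 0.0867. Cheek against abdomen and cheek against back, 0 of 49 passed by limma, where 1.33% and 0.559% of tested genes were called higher and 1.23% and 0.494% lower. At an unadjusted p under 0.05, 3 and 10 members were higher in cheek and none lower, where 11% and 18.4% of tested genes were higher. The median of members was 0.40 above abdomen and 0.52 above back, while that of all tested genes was 0.026 and 0.14 above.

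That elevation lay mainly in 2 mice. The mean log2 level of mitosis members in unwounded cheek was 2.12 in mouse 1, 1.84 in mouse 2, 3.16 in mouse 3 and 3.66 in mouse 4, while the 8 unwounded libraries of abdomen and back ran from 1.70 to 2.45. In mice 3 and 4 both, 44 of 49 members lay above all 10 other unwounded libraries, where 11.7% of tested genes did. Those were 16 of 18 replication, 24 of 25 mitosis and 4 of 6 regulator members. For E2f8, all 4 unwounded cheek libraries lay above all of abdomen and of back. For Ccnd2 they lay above all of back. The share of tested genes for which this held was not computed. Without these mice the cheek minus abdomen difference of Mki67 turned from 0.45 to -0.33, that of Top2a from 0.56 to -0.31 and that of Mcm2 from 0.33 to -0.27, an alternative chosen after seeing the data.

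The same libraries held genes of growing hair follicles. Over 13 such genes, among them the hair keratins Krt35 and Krt85 and trichohyalin (Tchh), summed FPKM was 5653 in unwounded cheek mouse 4 and 45.2 in unwounded cheek mouse 3, against 5.05 to 13.4 in the 20 libraries that hold neither these nor the 2 of back mouse 2. All 13 genes were above that range of libraries in mouse 4 and 9 of 13 in mouse 3, although the animals were described as in telogen. Back mouse 2 stood at 90.9 in unwounded skin and 28.7 in the wound, with 9 and 8 genes above the rest, while its mitosis mean in unwounded skin was 2.14, inside the range of the other back libraries. The 9 genes raised in unwounded back mouse 2 were hair keratins with Padi3 and Tchh, with Krt71 at 27.3 FPKM, while Shh, Lef1, Msx2 and Hoxc13, signals and factors of the growing follicle, lay inside the range of the other libraries there and above it in both cheek mice. The wounds of cheek mice 3 and 4 held these genes at 7.39 and 6.76. The part of hair follicles in the cheek values was not tested.

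**Figure D5:**
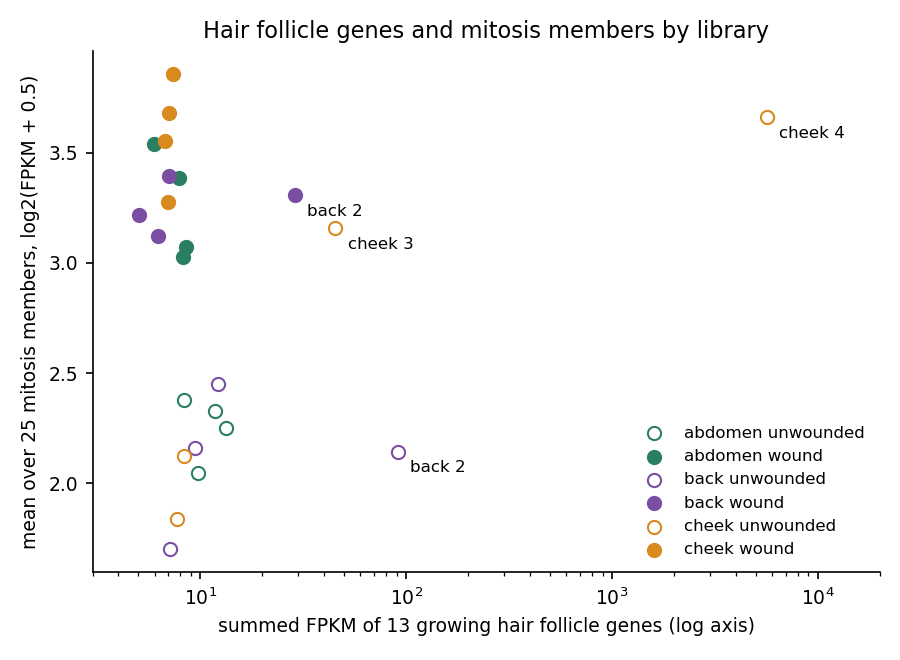
Mean log2(FPKM + 0.5) of the 25 mitosis members against the summed FPKM of 13 growing hair follicle genes (log axis) in each of 24 libraries, open for unwounded and filled for wound. Unwounded cheek libraries 3 and 4 lie high and to the right, at 45.2 and 5653 FPKM, and the back mouse 2 libraries lie to the right at the mitosis level of their own group.

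Within cheek, the mean wound changes of mitosis members were smallest in the mice whose unwounded skin was high. The change is wound minus unwounded, so a high unwounded level lowers it by definition. For mitosis members the change was 1.15 and 1.84 in cheek mice 1 and 2, 0.70 in mouse 3 and -0.11 in mouse 4. The wounds of cheek mice 3 and 4 stood at 3.85 and 3.55. Abdomen mouse 4, at 2.33 in unwounded skin, also changed by 0.70. Without mice 3 and 4 the mean change in cheek was 1.5 for mitosis and 1.08 for replication members, and their difference dropped by 0.414. In the fit without these mice, 18, 31 and 12 of 49 members rose at an adjusted p under 0.001 in abdomen, back and cheek, where 3.95%, 10.7% and 2.10% of tested genes did, and Ccnd2 alone fell, in abdomen, with 1.43%, 4.29% and 0.112% of tested genes lower. Leaving out back mouse 2 as well gave 11, 11 and 5, where 2.98%, 4.86% and 1.2% of tested genes rose.

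The third comparison was between sites in wounds. Class means were highest in cheek wounds: the mean log2 level of mitosis members was 3.26 ± 0.247 (abdomen), 3.26 ± 0.118 (back) and 3.59 ± 0.244 (cheek), and that of replication members 3.46 ± 0.140, 3.44 ± 0.0697 and 3.69 ± 0.199. Cheek wounds against abdomen wounds, 3 of 49 members passed an adjusted p under 0.05, all higher in cheek, where 7.52% of 14023 tested genes were higher and 3.32% lower, and 21 were higher at an unadjusted p under 0.05, as were 21.7% of tested genes. Those past the adjusted threshold were Rrm1 at 0.61 ± 0.15 (adjusted p = 0.0273), Kif23, a kinesin of cytokinesis, at 0.44 ± 0.12 (adjusted p = 0.0393) and Cenpe, a kinesin of the kinetochore, at 0.57 ± 0.17 (adjusted p = 0.0488).

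For none of these 3 did cheek and abdomen wounds separate. Rrm1 was 17.7, 15.5, 14.4 and 12.4 FPKM in abdomen wounds and 17.7, 26.9, 27 and 22 FPKM in cheek wounds of mice 1 to 4. Kif23 was 7.74, 6.27, 5.52 and 5.24 FPKM in abdomen wounds and 7.65, 8.67, 9.35 and 8.35 FPKM in cheek wounds. Abdomen mouse 1 and cheek mouse 1 met in the middle of both. Without abdomen mouse 1 or cheek mouse 1, 8 members passed, where 7.59% and 3.20% of tested genes were called higher. Without abdomen mouse 3 or 4, or cheek mouse 2, 3 or 4, 0 did, against 2.31% to 6.48% of tested genes. Without abdomen mouse 2 or back mouse 1, 3 or 4, 2 did, against 6.43% to 8.26%. Without back mouse 2, 1 did, against 5.12%. Against back wounds, 0 of 49 passed by limma, where 1.90% of tested genes were called higher and 0.599% lower, and 23 were higher at an unadjusted p under 0.05, as were 21% of tested genes. All cheek wounds lay above all back wounds for 4 of 49 members, Ccne2, Kif23, Ttk and Foxm1. The share of tested genes for which this held was not computed. Mki67 was higher in cheek wounds by 0.50 ± 0.17 than in abdomen wounds and by 0.51 ± 0.17 than in back wounds (adjusted p = 0.0760 and 0.0972), which did not pass. Back wounds against abdomen wounds, 0 of 49 passed by limma, against 0.506% of tested genes called higher and 0.763% lower, and 1 did at an unadjusted p under 0.05, Ttk, at -0.39 ± 0.11, where 9.81% of tested genes were lower.

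Genes of other cell types moved with wounding beside the members. Summed FPKM of 6 neutrophil genes was 8.18 to 37.6 in unwounded libraries and 344 to 2388 in wounds, and 4, 5 and 5 of the 6 rose at 0.001 in abdomen, back and cheek. The 5 wound keratinocyte genes, such as Krt6a and Krt16, summed to 394 to 1315 in unwounded libraries and 2386 to 17159 in wounds, with 4, 5 and 4 rising. A single neutrophil gene was listed at 0 in all unwounded libraries of abdomen and back. Of 7 macrophage genes 2, 4 and 3 rose, and their sums went from 480 to 1022 up to 887 to 1493. The abdomen wound of mouse 4 was lowest of the 12 wounds in both the neutrophil and the wound keratinocyte sum, and it had the lowest mitosis mean of the wounds, 3.03. The order differed elsewhere, as the cheek wound of mouse 4 had the next lowest neutrophil sum, 553, and a mitosis mean of 3.55. Granule genes of early myeloid cells, which divide in the marrow, summed to 10 to 39.8 in unwounded skin and 3.42 to 26.1 in wounds, and 0 of the 3 that could be tested rose at any site by limma at 0.05. Other lists are counted at 0.05. Of 6 skeletal muscle genes 4 fell in back, where sums went from 12586 to 19697 down to 2863 to 4125, and in abdomen and cheek 0 passed by limma, with 0 and 4 at an unadjusted p under 0.05. Of 5 regenerating muscle genes 5, 4 and 3 rose in abdomen, back and cheek, and of 4 endothelial genes 3 rose at each site. Of 4 adipocyte genes 4, 4 and 3 fell, of 6 fibroblast genes 4, 2 and 2 fell and 0, 1 and 1 rose, and of 4 T cell genes 1, 2 and 2 fell and 0, 1 and 0 rose. Of 6 basal epidermis genes 1, 2 and 3 rose and 3, 3 and 1 fell, and the single B cell gene that could be tested rose at each site. Of 11 tested hair follicle genes 5 fell in cheek. The part of these cells in the levels of the members was not tested.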

How the data were processed

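Total RNA of 24 whole-skin samples from 12 mice was sequenced. Per the labels and the study's methods, the authors aligned reads with HISAT2 and Bowtie2 2.2.5 (mm10) and estimated gene expression with RSEM 1.2.12, and the deposited FPKM values were used here. The file gives no counts, so depth and counting error are unknown. A further file with the authors' own DESeq2 comparisons (fold changes and p-values) was not used. Genes at 0.5 FPKM or more in at least 4 libraries were tested on log2(FPKM + 0.5) with limma 3.58.1 (R 4.3.3, trend, robust with statmod 1.5.0) and Benjamini-Hochberg adjustment over all tested genes. Fold changes of low genes are understated on this scale. Wound effects came from 1 fit to 24 libraries with a term for each mouse, with an adjusted p under 0.001 called. The F test and pairwise tests of the difference of wound effects used the same fit, and sites were compared within the 12 unwounded and the 12 wound libraries, with 0.05. Wound and unwounded libraries with the same mouse label came from the same animal, and their deviations from the group mean correlated at 0.322, 0.348 and 0.281 on average in abdomen, back and cheek, with a lowest pair of -0.030. Class means were averaged over log2(FPKM + 0.5). Values in every library are given for the 5 members the study names and, in each class, for the members with the largest and the smallest mean wound effect and the smallest p in the F test. From the further lists, the 2 genes of largest and the 2 of smallest mean effect could be named. The members and lists were chosen with earlier results of these data known. Scripts were tested on simulated data. Of the members, 24 overlap another annotated gene, and 4 (Ccnb1, Ccnb2, Pcna and Tyms) have a named pseudogene elsewhere.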

Additional observations from a re-analysis of the deposited data

Results flagged for a closer look

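Of 96 groups of 4 libraries checked for a library far from the others, 2 held one, where chance gives about 1 in 20. Chaf1a in back wounds was 6.35 FPKM in mouse 1, while the other 3 wounds lay between 5.37 and 5.49 FPKM. The mean of replication members minus that of mitosis members in cheek wounds was -0.0441 in mouse 3, while the other 3 wounds lay between 0.133 and 0.169, so that this was the library in which mitosis members stood above replication members.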

How the results depend on the processing

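Read depth was unknown. At 0.05, 36, 45 and 32 members rose and 2, 1 and 1 fell in abdomen, back and cheek. Other settings that moved a count by over 1.5 times are as follows, and the cause was not tested. With the replicate block of the mouse left out, 2 members rose in abdomen, as under median-ratio scaling. With each site fitted to its own 8 libraries, 35 rose in back and 0 fell in cheek, and 0 fell in cheek also with no filter and with no trend and robust moderation. Cheek against abdomen wounds, 1 member passed under median-ratio scaling, 1 with the mouse number as a replicate block, and 0 in a fit of all 24 libraries, in which 2 passed in unwounded cheek against abdomen and 1 against back. With the mouse number as a block, 0 passed in unwounded back against abdomen, but numbers are shared across sites by different animals. The replicate block changed no other count of calls by over 1.5 times. Beside the counts under these settings, the share of all tested genes was available only for the 35 in back, at 9.88%. With only the 250 bases before the start searched, 9 mitosis promoters held a CHR element.

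Leaving out 1 mouse at a time, the members that rose numbered 0 to 14 in abdomen, 0 to 23 in back and 0 to 16 in cheek. Of tested genes, 1.93% to 4.36%, 5.26% to 10.9% and 3.44% to 6.97% rose in these fits. The members that fell in cheek numbered 0 to 1. Members that passed between cheek and abdomen wounds numbered 0 to 8, where 2.31% to 8.26% of tested genes were called higher. Between unwounded back and abdomen 0 to 1 passed. Tyms in abdomen ran from -0.090 without mouse 1 to 0.18 without mouse 3. Under quantile normalization, Ttk in back was -0.017.

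Chosen after seeing the data, leaving out cheek mice 3 and 4 gave 18, 31 and 12 members that rose in abdomen, back and cheek, 1 that fell in abdomen and 0 that fell in cheek, and leaving out back mouse 2 as well gave 11, 11 and 5, with 0 that fell in cheek. Cheek against abdomen wounds, 0 passed in both, and unwounded back against abdomen, 0 passed in the second. In both, Ttk in cheek was 0.071, and unwounded cheek minus abdomen was -0.24 for Ccnb1, -0.27 for Mcm2, -0.33 for Mki67, -0.21 for Mybl2 and -0.31 for Top2a. Unwounded cheek minus back was -0.053, -0.065, -0.16, -0.32 and -0.10 for the same genes in the first and -0.028, -0.076, -0.12, -0.35 and -0.099 in the second. Over the 12 full-value members and the 3 wound site calls, 1238 of the values under an alternative kept their direction and side of the threshold, 95 fell short of it, 59 newly passed and 24 turned. Most of these values did not pass in the main fit, so they could keep their side only by not passing. Among those that passed, leaving out each of 12 mice in turn lost Ccnd2 in cheek 11 times and Cenpe 10 times. Kif23 was lost 8 times, Rrm2 in back 8, Chaf1a in back 7, Rrm1 5 and Ttk in unwounded back against abdomen 5. Plk1 and E2f8 in back were lost 4 times each and E2f8 in abdomen 3 times. The changes of the class means and of their difference kept their direction under all alternatives run, with classes narrowed by 2 and 3 genes giving -0.41, -0.32 and -0.28 for the difference. Among scalings, median-ratio scaling moved the median of all genes from -0.12 to -0.003 in unwounded back minus abdomen and from 0.14 to 0.0004 in cheek minus back, with the members' median there going from 0.52 to 0.40.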
